A study of Mus musculus with 6 samples.

Results

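The thymic epithelial identity factors described here are 7 transcriptional regulators taken by name from a table of 43432 gene IDs: Hoxa3, Eya1, Pax1, Pax9, Foxn1, Trp63 and Elf3. All 7 were found in the table, and 6 of them had enough counts to be tested; Hoxa3 did not. Their transcripts were counted by RNA sequencing in medullary thymic epithelium (mTEC, the cells that present peripheral-tissue antigens to developing T cells). Libraries labelled MUT came from heterozygous CopaE241K/+ mice (3 libraries) and libraries labelled WT from Copa+/+ mice (3 libraries). Both genotypes were C57BL/6 mice aged 4 weeks, and Copa encodes a subunit of the COPI coat that returns vesicles from the Golgi to the endoplasmic reticulum. The labels name no transgene or Cre driver, and they do not say whether a library is 1 mouse or a pool or which sex it came from, so p-values reflect only the spread among these 6 libraries, some of which may be technical.

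As background, the thymic epithelium arises from the endoderm of the third pharyngeal pouch, which also forms the parathyroid gland. In mice, Hoxa3, Eya1, Pax1 and Pax9 pattern that pouch, and Foxn1 then drives the pouch epithelium to become functional thymic epithelium, without which T cells do not develop. Trp63 encodes p63, which maintains the proliferative capacity of stratified and thymic epithelial progenitors, and Elf3 is an epithelial ETS-family factor known for differentiated epithelia such as that of the gut. The comparison asks whether these lineage regulators differ in mTEC that carry the Copa allele.

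Eya1 had the largest fitted difference between genotypes, and no identity factor passed the test over all genes. Of the 6 tested, 0 passed edgeR's quasi-likelihood test at a Benjamini-Hochberg adjusted p of 0.05 over all 17172 genes tested; 0 genes (0%) passed in the whole table, and limma-voom gave 0 as well. DESeq2, an alternative test, called 116 of the 18687 genes to which it gave an adjusted p (0.621%), and 0 of the 7 factors. At an unadjusted p under 0.05 there was 1 of the 6, Eya1, against 597 genes (3.48%) overall. MUT and WT libraries overlapped for all 7 factors, while 1606 genes (9.35%) did not overlap. Fitted log2 fold changes, MUT minus WT, were above 0 for 2 factors, Eya1 and Trp63 (49.4% of all genes), and below 0 for 4, Elf3, Pax9, Foxn1 and Pax1 (50.6%). Their median was -0.19, against -0.01 over all genes tested. Missing the threshold does not show equal levels: intervals are given with each gene, and in these libraries the median standard error (SE) of a log2 fold change was 1.03.

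Library totals ran from 21218363 to 23366238 counts in MUT and from 19934513 to 22880945 in WT. Values are given as CPM, read counts scaled to a common library size with TMM factors, which assume that most genes do not change. Copa itself measured 348 ± 43.6 CPM in MUT and 400 ± 151 CPM in WT (SD, n = 3 each), and a count cannot check a single amino acid change. Aire, the regulator of antigen display and an mTEC marker, measured 929 to 1563 CPM in MUT and 954 to 1379 CPM in WT. Having enough counts to be tested does not tell cell types apart: 9 of 9 cortical, 8 of 8 thymocyte and 7 of 7 myeloid markers were tested. Of the 11 mTEC markers 10 were tested. The exception was Ccl21a, a chemokine gene with near-identical copies, which had at most 4 counts in any library. Of the 9 cortical epithelial markers all were detected. Psmb11, the cortex-specific proteasome subunit, was among the lowest of them, at 4.84 to 30.2 CPM in MUT and 4.71 to 20.4 CPM in WT. Others were far higher: Tbata measured 394 to 929 CPM in MUT and 454 to 684 CPM in WT. Ccl25 measured 269 to 503 CPM in MUT and 201 to 403 CPM in WT. Marker RNA of other cell types was counted. The summed CPM of 8 thymocyte markers ran from 111 to 611 in MUT and 166 to 435 in WT, highest in MUT library 2. The sum of 7 myeloid markers ran from 516 to 1332 in MUT and 618 to 1128 in WT, also highest in MUT library 2. Lyz2 alone gave 384 to 636 CPM of the myeloid sum in MUT and 387 to 722 CPM in WT. Whether other cells or the mTEC themselves made this RNA was not tested. In these bulk samples fewer cells of a type and less RNA per cell cannot be told apart. WT library 1 stood apart with the fewest genes detected, 17174 against 19329 to 24774 in MUT and 19558 and 21755 in the other WT libraries, and with the lowest TMM factor (0.857).

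Pax1 and Pax9 are paralogs that share a DNA-binding paired domain, so reads from one could in principle be counted for the other. The most similar stretch of their coding bases, shown because it is where such sharing would happen, lies in the paired box and is printed from GENCODE M21 transcripts on GRCm38, 5′ to 3′ on the plus strand, with differing bases in capitals. The Pax1 stretch is chr2:147365768-147365917 (coding bases 295 to 444) and the Pax9 stretch is chr12:56696609-56696758 (coding bases 40 to 189).
Pax1: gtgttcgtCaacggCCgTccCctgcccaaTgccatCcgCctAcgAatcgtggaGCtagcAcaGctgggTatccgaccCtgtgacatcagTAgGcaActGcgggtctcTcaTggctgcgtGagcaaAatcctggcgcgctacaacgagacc
Pax9: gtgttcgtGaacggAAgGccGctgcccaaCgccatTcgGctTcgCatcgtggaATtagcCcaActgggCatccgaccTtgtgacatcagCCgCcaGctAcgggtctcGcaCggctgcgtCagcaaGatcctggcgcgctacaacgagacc
Of these 150 bases 125 were identical, and over the whole ungapped alignment of 614 bases 444 (72.3%) were. The longest run identical between any transcripts of both genes was 26 bases. For the other factors the longest run shared with a family relative was 33 bases for Hoxa3 (with Hoxb3), 32 for Foxn1 (with Foxn3), 23 for Trp63 (with Trp73), 21 for Eya1 (with Eya3) and 18 for Elf3 (with Elf5). The read length is not given in the sources used here, so the share of reads that could be assigned to either relative cannot be stated.

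Trp63 makes proteins from different promoters, and a count per gene cannot separate them. The annotation holds 4 coding transcripts that start at the upstream site (the TA form, with the transactivation domain) and 4 that start at the downstream site (the ΔN form, which lacks it and prevails in basal epithelium). Their first 60 coding bases are printed to show that they differ from the start codon on, which is in capitals; both are from GENCODE M21 on GRCm38, plus strand. The upstream bases are chr16:25684290-25684349, and the downstream ones lie within chr16:25802060-25820405 and span an intron.
Trp63 upstream start: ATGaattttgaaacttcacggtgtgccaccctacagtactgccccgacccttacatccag
Trp63 downstream start: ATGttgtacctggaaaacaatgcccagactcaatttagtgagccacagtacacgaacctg
All Trp63 values below are the sum over both kinds of transcript.

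**Figure D1:**
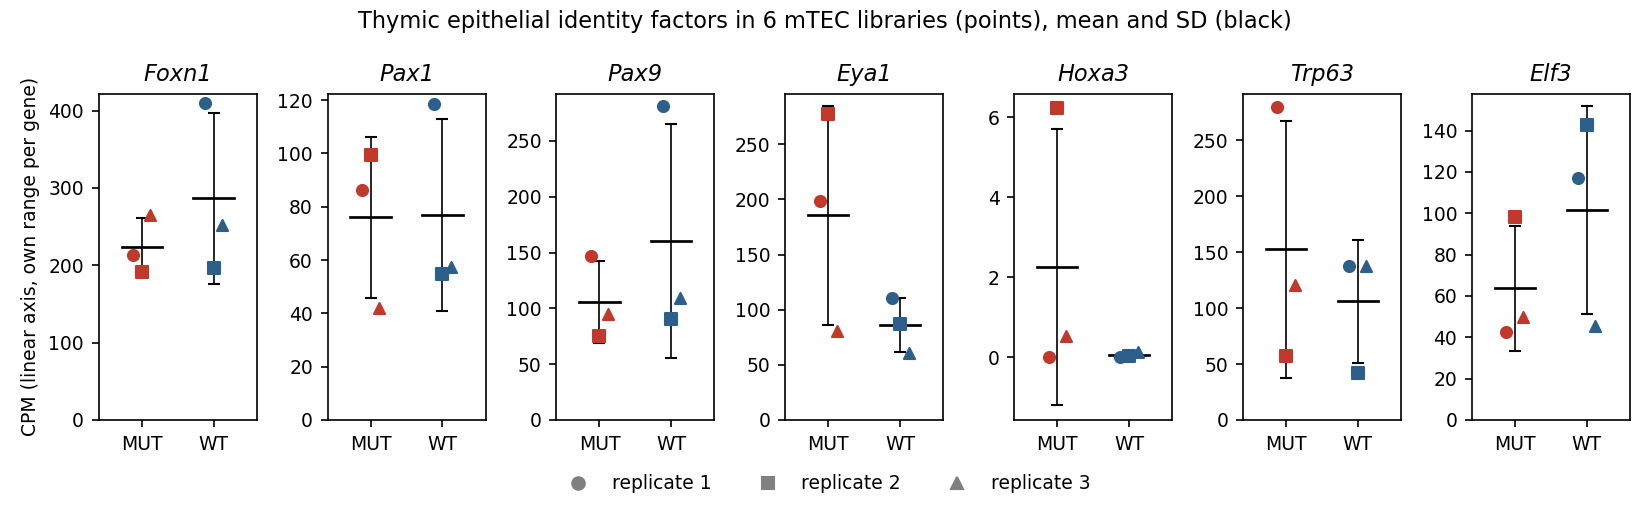
CPM of the 7 factors (each panel has its own linear axis), with 3 MUT libraries left and 3 WT libraries right; points are libraries, marked by replicate number, and black lines give the mean and SD. The genotypes overlap in every panel, WT library 1 is the highest point for Foxn1, Pax1 and Pax9, and MUT library 1 is the highest for Trp63.

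Hoxa3 (ENSMUSG00000079560, chromosome 6, 52169062 to 52213336, minus strand), whose loss in mice leaves no thymus, was close to undetected. Its counts were 0, 130 and 15 in MUT (libraries 1, 2 and 3), against 0, 1 and 3 in WT (libraries 1, 2 and 3). MUT library 2 alone held most of the counts, and the MUT and WT ranges overlapped at 0. A count of 0 allows up to 0.142 CPM in MUT library 1 and 0.172 CPM in WT library 1, for counting error only, since amplified reads without molecular identifiers are not independent molecules. Hoxa3 did not pass the filter on low counts and has no value in the main test; fitted without the filter, its edgeR adjusted p was 0.69. The gene overlaps 9 other annotated genes on both strands, and without a stated strand setting reads from the antisense ones cannot be told apart from its own. Of 10 other HOXA genes 3 were tested and 0 passed, and the 7 others were too sparse to be tested. Hoxa2, the one with the smallest p, was counted 145, 185 and 89 times in MUT, against 114, 0 and 6 times in WT (log2 fold change 1.47, SE 1.98), and was 5.50 without WT library 1 and 0.88 without WT library 2. Hoxa10 had 0, 0 and 74 counts in MUT and 8, 64 and 35 in WT (log2 fold change -0.90, SE 2.35), and was -8.12 without MUT library 3 and -0.19 without WT library 2.

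Eya1 (ENSMUSG00000025932, chromosome 1, 14168954 to 14310235, minus strand) encodes a transcriptional coactivator and phosphatase that is needed for thymus formation in mice. It measured 199, 278 and 80.8 CPM in MUT libraries 1, 2 and 3, and 110, 87.1 and 60.8 CPM in WT libraries 1, 2 and 3. MUT libraries 1 and 2 lay above all 3 WT libraries, but MUT library 3 lay below WT libraries 1 and 2, so the genotypes overlapped. The means were 186 ± 99.1 CPM in MUT and 86.1 ± 24.8 CPM in WT (SD, n = 3 each), a log2 fold change of 1.11 (SE 0.47, 95% interval 0.07 to 2.14). Its unadjusted p in edgeR's quasi-likelihood test was 0.038, which ranked 451 of 17172 genes, and its adjusted p was 0.999875. The log2 fold change stayed above 0 with any 1 library left out (0.69 to 1.46) and was lowest without MUT library 2. MUT library 2 also had the highest thymocyte and myeloid marker sums given above. Any part of such cells in the Eya1 value was not tested.

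The Eya1 relative Eya2 measured 253, 138 and 139 CPM in MUT and 569, 104 and 149 CPM in WT (log2 fold change -0.63, SE 0.57). WT library 1 was far above the other 5 libraries for Eya2, and the genotypes overlapped. Eya2 is outside the rule for naming genes and was chosen after its values were seen.

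Pax1 (ENSMUSG00000037034, chromosome 2, 147361925 to 147393295, plus strand) measured 86.4, 99.5 and 42.0 CPM in MUT libraries and 119, 54.8 and 57.2 CPM in WT libraries. Both genotypes covered almost the same range. The means were 75.95 ± 30.2 CPM in MUT and 76.9 ± 36.2 CPM in WT (SD, n = 3 each), and the log2 fold change was -0.02 (SE 0.51, 95% interval -1.13 to 1.09). The sign of so small a value changed with the processing: it was 0.44 without WT library 1, 0.27 without MUT library 3 and 0.07 with upper-quartile normalization. The interval covers MUT levels from 0.458 to 2.13 times those of WT, and the highest library was 2.83 times the lowest.

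Pax9 (ENSMUSG00000001497, chromosome 12, 56691767 to 56712822, plus strand), whose loss in mice misplaces and shrinks the thymus, measured 147, 75.6 and 94.8 CPM in MUT libraries and 281, 90.7 and 109 CPM in WT libraries. WT library 1 was alone at the top, and the remaining 5 libraries were mixed. The log2 fold change was -0.60 (SE 0.49, 95% interval -1.66 to 0.46; adjusted p 0.999875 in edgeR), and without WT library 1 it was 0.08. The difference in means, 106 ± 36.8 CPM in MUT and 160 ± 105 CPM in WT (SD, n = 3 each), was smaller than the spread between WT libraries.

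Foxn1 (ENSMUSG00000002057, chromosome 11, 78357577 to 78386558, minus strand), the forkhead factor mutated in nude mice, had the highest mean CPM of the set over the 6 libraries, although Trp63 was higher in MUT library 1 and Eya1 in MUT library 2. It measured 213, 192 and 264 CPM in MUT libraries and 410, 196 and 253 CPM in WT libraries. WT library 1 was again the highest, and the other WT libraries lay within the MUT range. Its log2 fold change was -0.36 (SE 0.36, 95% interval -1.13 to 0.41; adjusted p 0.999875 in edgeR), and -0.01 without WT library 1. In means, Foxn1 stood at 223 ± 37.4 CPM in MUT and 286 ± 111 CPM in WT (SD, n = 3 each). It was the steadiest factor over the 6 libraries, with a highest value 2.14 times the lowest, against 6.62 times for Trp63.

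Genes that depend on Foxn1 in thymic epithelium, many of them most active in the cortex, gave 10 of 10 tested and 0 past the threshold. Of them 8 had a fitted value above 0 and 2 below, and the median log2 fold change was 0.43 (-0.01 over all genes), and in 0 of the 10 did the genotypes separate, against 9.35% of all genes. Cxcl12, a chemokine for progenitor cells, had the smallest p of the list, at 3.82, 26.5 and 16.5 CPM in MUT and 70.5, 33.6 and 19.6 CPM in WT (log2 fold change -1.40, SE 0.83), and was -0.77 without WT library 1. Ctsl, the protease that prepares class II peptides in the cortex, measured 380, 472 and 166 CPM in MUT and 284, 245 and 140 CPM in WT (0.60, SE 0.42), and was 0.29 without MUT library 2. The summed CPM of the 9 cortical markers, 3 of the 9 outside this list, ran from 957 to 2078 in MUT and 1002 to 1502 in WT; their part in these values was not tested.

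Trp63 (ENSMUSG00000022510, chromosome 16, 25683763 to 25892102, plus strand) varied most among the tested factors. It measured 280, 57.3 and 120 CPM in MUT libraries and 138, 42.3 and 138 CPM in WT libraries. MUT library 1 was the highest, and the lowest value of each genotype lay far below its other libraries. The log2 fold change was 0.52 (SE 0.59, 95% interval -0.77 to 1.82; adjusted p 0.999875 in edgeR), and without MUT library 1 it was -0.26. Means of 153 ± 115 CPM in MUT and 106 ± 55.2 CPM in WT (SD, n = 3 each) differed by less than either SD.

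Of 17 genes linked to p63 in basal and stratified epithelium all 17 were tested and 0 passed. Whether p63 raises or lowers each of them was not tested. Fitted values were above 0 for 5 and below 0 for 12 (median log2 fold change -0.23). The genotypes did not overlap for 3 of the 17, all with MUT below WT. Among all genes tested, 680 (3.96%) had MUT below WT without overlap, and 1606 (9.35%) did not overlap in either direction. Sfn, which encodes the epithelial 14-3-3 protein stratifin, measured 232, 129 and 109 CPM in MUT and 323, 315 and 334 CPM in WT (log2 fold change -1.05, SE 0.36, unadjusted p 0.013 and adjusted p 0.999875 in edgeR). Fermt1, which encodes the integrin activator kindlin-1, measured 253, 126 and 261 CPM in MUT and 526, 288 and 445 CPM in WT (-0.98, SE 0.38). The other gene was Perp, a desmosomal protein gene, with 278 ± 93.8 CPM in MUT and 454 ± 64.2 CPM in WT (SD, n = 3 each); it was named after its values were seen. The basal keratin genes Krt5 and Krt14, also mTEC markers, overlapped between genotypes, and Krt5 reached 1327 CPM in WT library 1 against 264 CPM in WT library 2.

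Elf3 (ENSMUSG00000003051, chromosome 1, 135253575 to 135258568, minus strand) measured 42.7, 98.2 and 50.05 CPM in MUT libraries and 117, 143 and 45.6 CPM in WT libraries. WT libraries 1 and 2 lay above all 3 MUT libraries, while WT library 3 lay among the lowest, so the genotypes overlapped. The log2 fold change was -0.68 (SE 0.53, 95% interval -1.84 to 0.48; adjusted p 0.999875 in edgeR). It ranged from -1.14 without MUT library 2 to -0.36 without WT library 2. In each genotype library 2 had the most Elf3 and the least Trp63.

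Of 16 further genes of epithelial identity 15 were tested and 0 passed, with 7 fitted values above 0 and 8 below and a median log2 fold change of -0.22. Ovol1, a repressor in differentiating epithelium, had the smallest p, with 71.3, 190 and 19.7 CPM in MUT and 26.9, 61.3 and 21.0 CPM in WT (1.36, SE 0.74), and was 0.32 without MUT library 2. Epcam, the adhesion molecule by which thymic epithelium is commonly sorted, was the 1 of the 15 whose genotypes did not overlap, against 3.96% of all genes with MUT below WT and 9.35% in either direction. It measured 418, 441 and 593 CPM in MUT and 629, 641 and 751 CPM in WT (log2 fold change -0.48, SE 0.28, unadjusted p 0.12 in edgeR).

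**Figure D2:**
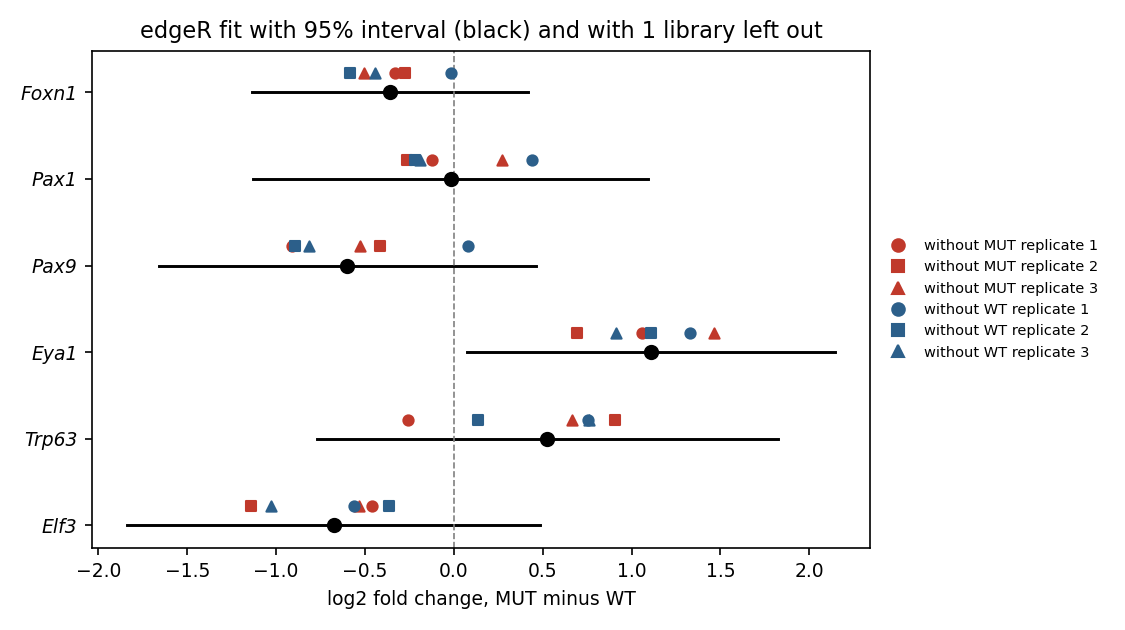
Log2 fold change, MUT minus WT, of the 6 tested factors from edgeR (black points) with 95% intervals (black lines); coloured marks above each line are the values with 1 library left out. The Eya1 marks all lie above 0, those of Foxn1 and Elf3 all lie below 0, and those of Pax1, Pax9 and Trp63 lie on both sides.

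To compare levels between genes, CPM were divided by the length of all annotated exons of the gene in kilobases. On this scale Foxn1 was first, with a mean level of 69.4 ± 11.6 CPM per kilobase in MUT and 89.1 ± 34.5 in WT (SD, n = 3 each). Elf3 followed at 28.7 ± 13.6 CPM per kilobase in MUT and 45.9 ± 22.7 in WT, and Pax9 at 20.9 ± 7.29 in MUT and 31.7 ± 20.8 in WT. Eya1 had a level of 23.8 ± 12.7 CPM per kilobase in MUT and 11.03 ± 3.18 in WT. Pax1 and Trp63 were close behind over all 6 libraries, with mean levels of 17.01 and 15.4 CPM per kilobase, and Hoxa3 was last at 0.19. Foxn1 exceeded Elf3 in 5 of 6 libraries, though their ranges overlapped. Elf3 exceeded Pax9 in 3 of 6 libraries, Eya1 exceeded Pax1 in 3 of 6, and Pax1 exceeded Trp63 in 3 of 6, so these neighbours were not separated beyond their spread. Pax9 exceeded Eya1 in 5 of 6 libraries, with overlapping ranges. With the length of the longest coding transcript instead, the order of the means over all 6 libraries was the same, and Pax9 exceeded Eya1 in 4 of 6. The order within a genotype was less settled: in MUT the mean level of Eya1 was 42.5 CPM per kilobase and that of Elf3 30.4 with the longest transcript, while with all exons Elf3 was the higher. In WT the mean of Eya1 was the lowest of the 6 tested factors with either length. With the longest transcript it was nearly level with Trp63, at 19.7 ± 5.69 against 19.8 ± 10.3 CPM per kilobase (SD, n = 3 each).

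**Figure D3:**
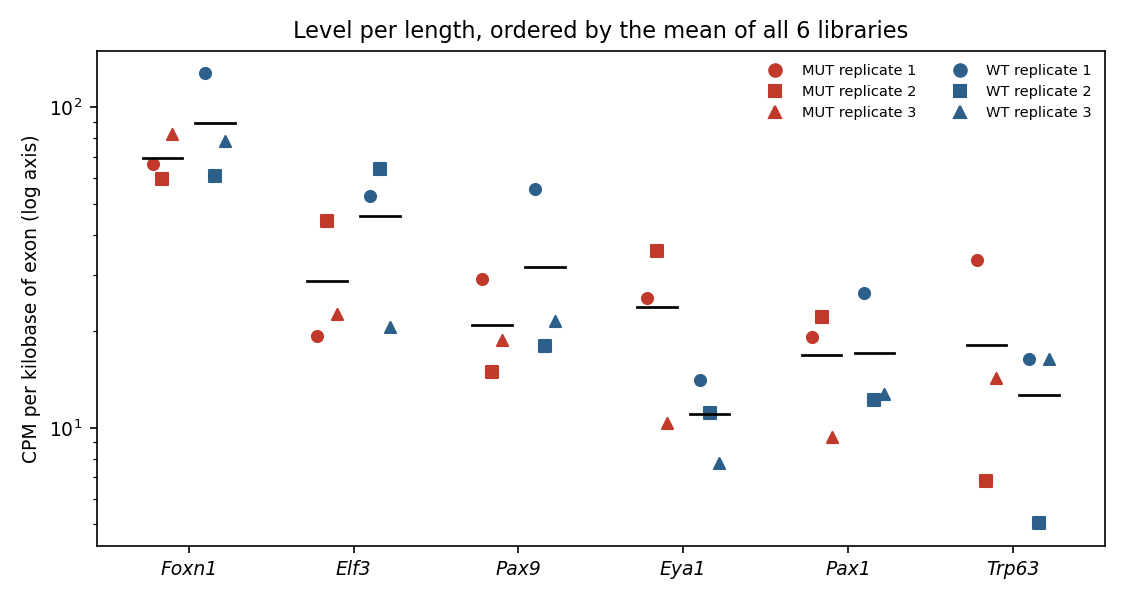
Level of the 6 tested factors in CPM per kilobase of exon (log axis), ordered by the mean over all libraries, with MUT left of WT for each gene; points are libraries, marked by replicate number, and bars are means. Foxn1 has the highest mean and lies between 59.7 and 128, and the upper end of Elf3, 64.3 in WT library 2, reaches into that range; Hoxa3 is left out because it was at 0 in 2 libraries.

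The other pouch factors gave 11 of 13 tested and 0 past the threshold, with 4 fitted values above 0 and 7 below (median log2 fold change -0.03). Gcm2, the parathyroid regulator of the same pouch, had the smallest p, at 0.42, 3.50 and 2.13 CPM in MUT and 0, 0.19 and 0.84 CPM in WT (log2 fold change 2.54, SE 2.19), and was 4.32 without WT library 3. Of 23 family relatives of the factors 21 were tested and 0 passed, with 14 fitted values above 0 and 7 below and a median of 0.22. Elf1, an ETS gene of the same family as Elf3 that leukocytes also express, had the smallest p, at 124, 69.4 and 123 CPM in MUT and 298, 176 and 125 CPM in WT (-0.92, SE 0.43), and -0.51 without WT library 1. Pax7, known as a muscle progenitor factor, measured 33.4, 23.9 and 21.4 CPM in MUT and 2.24, 7.44 and 15.4 CPM in WT (1.65, SE 0.92). Elf1 and Pax7 were the 2 relatives whose genotypes did not overlap, as for 9.35% of all genes in either direction. Elf1 had MUT below WT (3.96% of all genes) and Pax7 had MUT above (5.39%).

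Among the signals, receptors and intracellular regulators listed as upstream of Foxn1, 15 of 17 were tested and 0 passed in the main fit. Of the 15, 6 had fitted values above 0 and 9 below, with a median log2 fold change of -0.13. Smo, the hedgehog signal transducer, measured 17.7, 15.4 and 25.6 CPM in MUT and 275, 12.5 and 34.8 CPM in WT. WT library 1 alone was high, and the log2 fold change of -2.46 (SE 0.92) was -0.28 without it. Wnt4, a Wnt ligand gene that can raise Foxn1, likewise had 150 CPM in WT library 1 and 3.67 to 44.3 CPM in the remaining 5 libraries, and its log2 fold change of -1.26 (SE 1.04) was 0.53 without WT library 1. Foxn1, Pax1, Pax9, Smo, Wnt4, Cxcl12, Krt5, Eya2, Elf1 and Fermt1 were among the genes named here with their highest value in WT library 1. That library was highest for 22.9% of all genes tested. The named genes are listed for that peak, so their number cannot be set against this share. Of the other identity factors, Eya1 and Hoxa3 were highest in MUT library 2, Trp63 in MUT library 1 and Elf3 in WT library 2. At an unadjusted p under 0.05 in edgeR, which 3.48% of all genes met, there were 2 of 17 tested genes linked to p63 (Sfn and Fermt1). There were also 1 of 15 upstream genes (Smo) and 0 genes of the pouch, relative, HOXA, Foxn1-dependent and epithelial lists. DESeq2 with default settings and limma-voom called 0 genes of any of these lists.

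**Figure D4:**
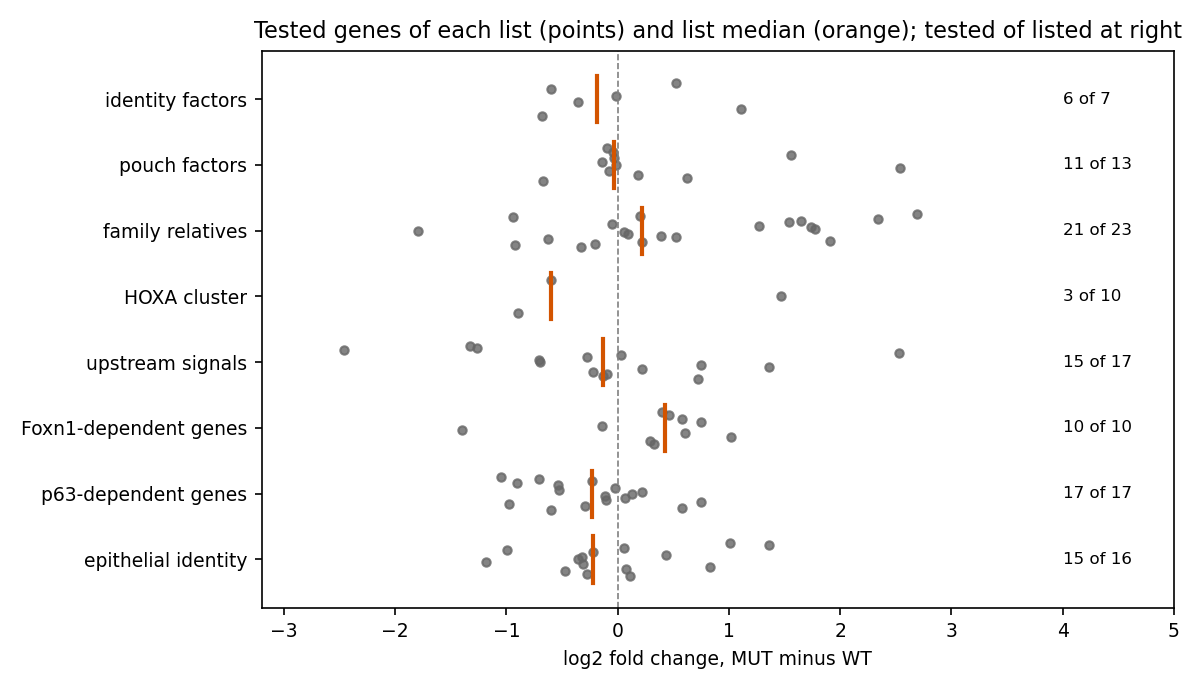
Log2 fold change, MUT minus WT, of every tested gene in each list (grey points) with the list median (orange bar); the numbers at the right give tested genes of listed genes, and Fgfr2 stands in 3 lists. Points lie on both sides of 0 in every list, and medians run from -0.60 for the 3 tested HOXA genes to 0.43 for the Foxn1-dependent genes.

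For each tested factor the genes with the most similar pattern were found as those with the smallest root-mean-square difference of centred log2 CPM over the 6 libraries, among 10431 genes with a mean of at least 10 CPM. For Foxn1 these were Csnk1a1 (0.076) and Gpr107 (0.090), and for Pax9 Leprotl1 (0.11) and Atf6 (0.12). For Pax1 they were Cdk11b (0.16) and Clec2d (0.16), for Eya1 5031425E22Rik (0.18) and Cox19 (0.19), for Trp63 Nsdhl (0.13) and Tgfbi (0.19), and for Elf3 Kif1bp (0.13) and Slc35c1 (0.14). None of these genes is another identity factor. With so many genes and 6 libraries close matches are common, and they describe these libraries only.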

How the data were processed

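RNA was extracted with a column kit, amplified to cDNA with Nugen Ovation, and Nextera XT libraries were prepared, per the labels' protocols. The authors deposited raw read counts per Ensembl gene ID, 1 column per library, with no normalization. STAR 2.4.2a, DESeq2 1.26.0 and GRCm38 are listed in the submitters' processing notes without roles; counter, strand setting and annotation release were not given in the sources used here. Symbols (42462 IDs matched), coordinates and exon lengths came from GENCODE M21 on GRCm38, through gene IDs.

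Counts were tested with edgeR 4.0.16 (R 4.3.3): filterByExpr, TMM, robust quasi-likelihood F-tests, genotype as the only term, Benjamini-Hochberg adjustment over 17172 genes at 0.05. The fit was tested on simulated data. Groups came from sample titles. No libraries of a genotype agreed within sampling noise (lowest chi-square per degree of freedom 194). Log2 CPM used a prior count of 2. Members and lists were chosen with earlier results of these data known; all 7 members are named, then the 2 genes of smallest p in each list, then the 2 most similar genes. Some items the rule names are not reported here. Any other gene named was chosen after its values were seen. Alternatives were the replicate block, other normalizations, filters and thresholds, mitochondrial genes left out, DESeq2 1.42.0, limma-voom 3.58.1 and each library left out. DESeq2 on the genes edgeR tested and the longest coding transcript as length were chosen after seeing the data.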

Additional observations from a re-analysis of the deposited data

How the results depend on the processing

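No identity factor passed the threshold under any alternative run, and the adjusted p ranged from 0.42 (Eya1, DESeq2 with the replicate block) to 0.99997 over all alternatives. Foxn1, Eya1 and Elf3 kept their direction in all 16. Pax1 changed sign in 3 (0.067 with upper-quartile normalization, and 2 libraries left out), Pax9 and Trp63 in 1 each. With 1 library left out the log2 fold changes ran from -0.27 to 0.44 for Pax1, -0.91 to 0.077 for Pax9 and -0.26 to 0.91 for Trp63; the cause was not tested. Hoxa3 entered 7 of the alternatives. Its lowest adjusted p there was 0.476, in DESeq2 (log2 fold change 5.23, SE 2.38). Its log2 fold changes ran from 2.66 in DESeq2 with the replicate block to 6.225 without WT library 3. The count of genes past the threshold, 0 in the main test, was 1 with the replicate block, 73 without a filter on low counts, 116 with DESeq2, 35 when DESeq2 ran on edgeR's tested genes, and 302 when DESeq2 used the replicate block; the cause was not tested. Among the further lists these included Smo without the filter and Pax4, a Pax-family gene, in DESeq2 with the block. Over all genes, the median log2 fold change (-0.01 in the main test) was 0.16 unfiltered, 0.15 in DESeq2 and 0.20 in blocked DESeq2. What a replicate number marks is not stated in the labels. Deviations of libraries with the same number correlated at 0.059 to 0.13, and 6 of 6 libraries correlated best with their own number. These are 3 pairs, each counted from both sides, so the 6 outcomes are not independent. With the replicate block in edgeR, the log2 fold change was 0.97 for Eya1 and -0.47 for Pax9. In the source names, a MUT and a WT library with one number end alike. Between same-numbered libraries Eya1 was higher in MUT, and Pax9 lower in MUT, in 3 of 3. Foxn1, Pax1, Trp63 and Elf3 each went both ways. The share of all genes with one direction in 3 of 3 was not computed, so no conclusion is drawn from these pairs. Hoxa3 and 7 other HOXA genes had too few counts for the filter.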

Other observations

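The parathyroid, which forms from the same pouch as the thymus, had its markers counted in these mTEC libraries. Casr, the calcium-sensing receptor gene, measured 76.1, 55.4 and 43.8 CPM in MUT and 8.27, 24.4 and 23.9 CPM in WT, without overlap, as for 926 genes (5.39%) with MUT above WT. Its log2 fold change of 1.63 (SE 0.63) was 1.27 to 1.85 with 1 library left out, and edgeR gave an unadjusted p of 0.025 (adjusted p 0.999875). Pth, the parathyroid hormone gene, measured 585, 99.4 and 14.0 CPM in MUT and 228, 213 and 86.8 CPM in WT, with overlapping genotypes (log2 fold change 0.40, SE 0.89). Gcm2 stayed at or below 3.50 CPM in every library.

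Tbx1, a pouch regulator gene too sparse to be tested, had 72, 9 and 29 counts in MUT and 0, 0 and 2 counts in WT. It was picked out after its values were seen, and the share of such sparse genes whose genotypes do not overlap was not computed. Foxi3, the other untested pouch factor, had 0, 0 and 31 counts in MUT and 0, 0 and 28 in WT.

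Some genes that overlap the identity factors on the opposite strand were counted unevenly. They were picked out after their values were seen, and their counts are raw. Others were mixed or near 0, such as Gm15524 at Pax9, with 7, 0 and 29 counts in MUT and 1, 3 and 12 in WT. Among all genes tested, 926 (5.39%) had MUT above WT without overlap. Gm15050, within Hoxa3, had 261, 0 and 22 counts in MUT and 9, 1 and 0 in WT, and Hoxaas2 had 156 counts in WT library 1, 2 in MUT library 3 and 0 elsewhere. Gm26642, which covers the whole of Elf3, had 12, 56 and 50 counts in MUT and 0, 0 and 8 in WT, against 906 to 2049 Elf3 counts in MUT and 1036 to 3028 in WT. Slc25a21, which meets the end of Pax9 over 189 bases, had 188, 31 and 81 counts in MUT and 0, 14 and 4 in WT.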
